A study of Mus musculus with 8 samples.

Results

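The defensin genes of the mouse were examined in the Cut & Tag peak lists of brown preadipocytes (BAC). All protein-coding genes of GRCm38 with a symbol of Defa or Defb followed by a number were taken, which gave 28 Defa and 42 Defb genes, 70 of the 21887 protein-coding genes on chromosomes 1 to 19, X and Y. The rule reads symbols only, but the families were picked for study with earlier results of these data known. The BAC were isolated from the brown fat of *Cars2* flox/flox mouse pups, made to grow without limit by SV40 large T, and differentiated before the assay. Cells infected with the empty retroviral vector (Vec, labelled WT) still have *Cars2*, and cells infected with a Cre retrovirus (Cre, labelled CarS2-KO) lack it. Both kinds of cell come from the floxed mice and carry large T, and the Cre cells in addition express the recombinase. In Cut & Tag, an antibody on chromatin brings a transposase to its site, so that the DNA beside it is cut, tagged and sequenced. Antibodies against EBF2, a transcription factor of brown adipocytes, and H3K27ac, a histone acetylation found at promoters and enhancers in use, gave 2 libraries each in Vec and in Cre, 8 in all, with 1 peak list per library. The labels do not say whether the libraries of a group came from separate cultures, so p-values measure the spread between these libraries, which may be technical.

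Defensins are short cationic peptides, held together by disulfide bonds, that disrupt the membranes of microbes. The alpha-defensins of the mouse, encoded by the Defa genes and also called cryptdins, are stored in the granules of Paneth cells at the base of the intestinal crypts and are cut to their active form by the protease MMP7. The beta-defensins, encoded by the Defb genes, are made by epithelia of skin, airway, kidney and gut, and many of them by the epididymis. Both lie in tandem arrays of genes that arose by duplication.

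The lists held between 533 and 902 peaks, which covered 81.2 to 115 Mb per list, and the number of reads behind them is unknown. EBF2 Vec replicate 2 was the shortest list. Its best −log10 q-value was 312, against 1841 in EBF2 Vec replicate 1 and 2328 and 2013 in EBF2 Cre replicates 1 and 2. The peak names in the list labelled EBF2 Cre replicate 1 carry Cars2AKO, the study's name for an adiponectin-Cre mouse, and its label was followed. No peak lay in or within 10 kb of any of 12 brown adipocyte genes, among them *Ucp1*, *Adipoq* and *Fabp4*, in any of the 8 lists. Of all protein-coding genes, 8.89% had a peak in at least 1 list, so 0 of 12 is near that background and does not bear on the labelled cell type. Of 6 markers of Paneth cells and gut epithelium and 6 of macrophages and blood cells, none had a peak either, and nothing is read from these short lists. Of 6 markers of preadipocytes and fibroblasts, only *Ly6a* had one, in the 4 H3K27ac lists.

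The promoters of 2 Defa genes that lie differently to the peaks are shown first. Defa21 (gene ID 66298) is the first gene of the Defa array and lay outside the peaks in all 8 lists, whereas Defa22 lay under a peak in all 8. The sequences are from RefSeq (GRCm38.p6) and run from 250 bases before to 50 bases after the start of the gene, 5′ to 3′. The Defa21 promoter is at chr8:21025295-21025594 and the Defa22 promoter at chr8:21162027-21162326, both on the plus strand, and the capitals mark the letters TATAAA.
Defa21: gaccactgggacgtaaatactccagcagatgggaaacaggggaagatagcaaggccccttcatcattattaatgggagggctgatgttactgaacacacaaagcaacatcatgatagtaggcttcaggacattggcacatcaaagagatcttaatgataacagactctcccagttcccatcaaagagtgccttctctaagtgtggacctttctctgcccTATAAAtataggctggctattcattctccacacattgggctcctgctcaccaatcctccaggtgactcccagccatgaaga
Defa22: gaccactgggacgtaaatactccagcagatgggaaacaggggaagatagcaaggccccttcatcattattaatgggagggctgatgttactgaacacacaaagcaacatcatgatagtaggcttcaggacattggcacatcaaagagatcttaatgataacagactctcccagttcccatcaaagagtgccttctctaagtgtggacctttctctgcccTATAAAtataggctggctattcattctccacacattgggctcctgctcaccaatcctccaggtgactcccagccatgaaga
No base differed between them. Of the 28 Defa genes, 16 had a promoter in the table used here, and these held 5 pairs of identical promoters: *Defa2* and *Defa20*, *Defa21* and *Defa22*, *Defa23* and *Defa31*, *Defa36* and *Defa37*, and *Defa42* and *Defa43*. Only 57.1% of the Defa and 69.0% of the Defb genes had an entry, so a check of promoter sequence over the families is void, and the values below describe the promoters found.

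Among the 29 Defb promoters found, none was identical to another. The most alike pair was that of *Defb3* and *Defb8*, shown because it is the nearest that the Defb promoters come to a copy, with 89.7% of the 300 bases matched. *Defb3* is at chr8:19293111-19293410 on the plus strand and *Defb8* at chr8:19447557-19447856 on the minus strand. The capitals mark the bases not matched in the alignment of the pair, 31 in each.
Defb3: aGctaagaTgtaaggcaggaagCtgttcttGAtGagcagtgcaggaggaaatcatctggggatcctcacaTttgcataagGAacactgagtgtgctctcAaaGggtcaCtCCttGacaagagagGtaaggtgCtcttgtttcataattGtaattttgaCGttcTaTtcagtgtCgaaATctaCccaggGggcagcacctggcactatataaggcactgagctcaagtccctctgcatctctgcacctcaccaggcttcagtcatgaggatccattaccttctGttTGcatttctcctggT
Defb8: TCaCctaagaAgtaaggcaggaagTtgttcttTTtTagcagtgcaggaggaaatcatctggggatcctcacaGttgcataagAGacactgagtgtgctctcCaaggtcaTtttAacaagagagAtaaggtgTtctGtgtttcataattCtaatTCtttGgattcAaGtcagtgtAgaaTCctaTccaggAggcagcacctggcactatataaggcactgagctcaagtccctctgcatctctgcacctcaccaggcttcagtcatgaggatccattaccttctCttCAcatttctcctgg
The 16 Defa promoters had a best identity with another member of between 74.3% and 100%, and it was at least 90% in 14 of them. The 29 Defb promoters had a best identity of between 61.0% and 89.7%. Over all pairs, the median identity was 77.7% between Defa promoters (120 pairs), 59.7% between Defb promoters (406 pairs) and likewise 59.7% between a Defa and a Defb promoter (464 pairs). Every 30-base word of a promoter was also looked up in the promoters of other genes, on either strand. All 16 Defa promoters shared at least 1 such word with another gene, as did 9 of the 29 Defb promoters and 11.7% of the 32851 promoters in the table.

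The consensus palindrome that EBF factors bind was found on either strand in 0 of the 16 Defa and 0 of the 29 Defb promoters, and in 0.904% of all promoters. Its core CCCNNGGG, which each match of the longer form also holds, was in 0 of the Defa promoters, in 2 of the Defb promoters (*Defb3* and *Defb45*) and in 13.7% of all. The letters TATAAA were in 15 of the Defa promoters, 5 of the Defb promoters and 13.6% of all, on either strand. These are matches of letters in a window of 300 bases and not measured sites.

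The main contrast was between the families. In each of the 8 lists, at least 23 of the 28 Defa genes had a peak that overlapped the gene or lay no more than 10 kb from either end, and none of the 42 Defb genes had one. In the EBF2 lists, 24 Defa genes had a peak in Vec replicate 1, where 5.13% of all protein-coding genes had one, and 25 in Vec replicate 2, where 3.85% had one. The EBF2 lists of the Cre cells gave 25 in replicate 1 and 26 in replicate 2, beside 5.17% and 4.95% of all protein-coding genes. In H3K27ac, the number was 24 in both Vec lists, beside 6.93% and 5.60% of all genes in replicates 1 and 2. The H3K27ac lists of the Cre cells gave 25 in replicate 1 and 23 in replicate 2, beside 5.80% and 7.20%. The lowest share of Defa genes in a list, 82.1%, was thus far above the highest share of all genes.

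Over the 8 libraries, the share of Defa genes with a peak was 87.5% ± 3.31 (SD, n = 8) and that of Defb genes 0%. The difference is given without a test, because a Defb share of 0% in every library fixes its sign. The share of all protein-coding genes was 5.58% ± 1.09 (SD, n = 8). Defa exceeded it by 81.9 percentage points on average and was above it in 8 of 8 libraries (exact sign-flip permutation test, two-sided, p = 0.00781, the smallest this test allows). The Defb share was 5.58 percentage points below it, given without a test for the same reason. Within an antibody, with n = 4 libraries, the Defa share exceeded that of all protein-coding genes by 84.5 ± 3.05 percentage points for EBF2 and 79.3 ± 3.53 for H3K27ac (SD), and the smallest exact p there, 0.125, was reached in both. The genes of a family are neighbours under shared peaks and are not independent, so the test covers libraries and not genes. The families were picked with earlier results of these data known, so these p-values describe the lists and lend the contrast no support. With only peaks of 10 kb or less, 0 or 1 Defa gene per list had a peak, and the Defa share exceeded that of all protein-coding genes by 0.354 percentage points (exact sign-flip permutation test, n = 8, p = 0.633).

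**Figure D1:**
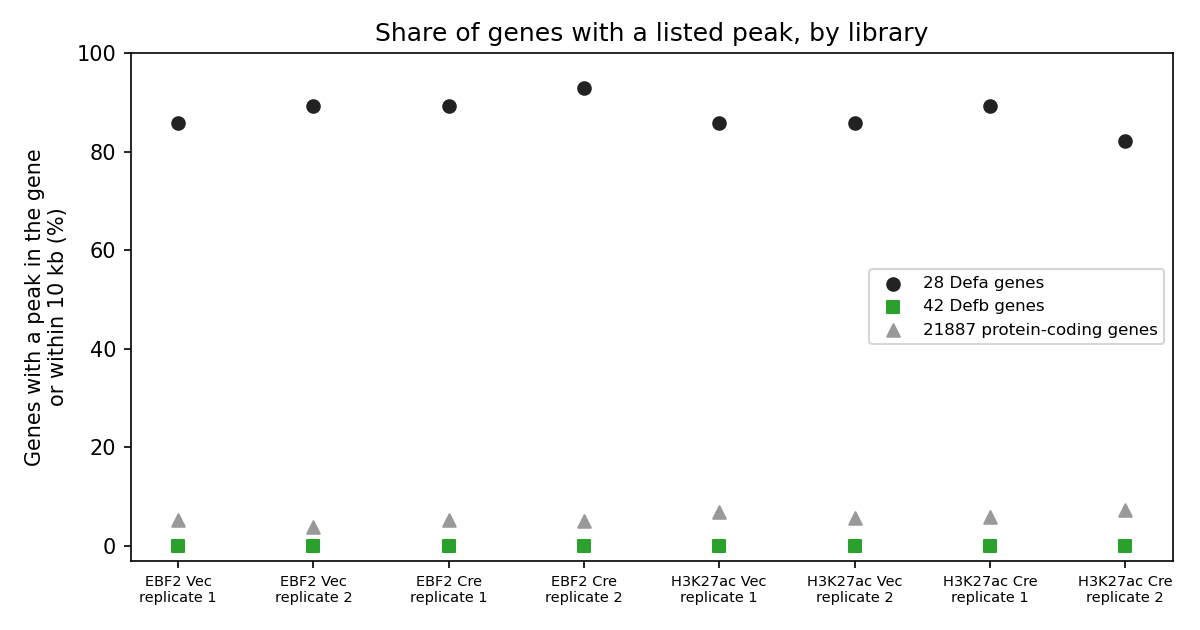
Percent of genes with a peak no more than 10 kb away, on the vertical axis, in each of the 8 libraries, with 1 point for the 28 Defa genes, the 42 Defb genes and the 21887 protein-coding genes. The Defa points sit between 82.1% and 92.9%, all Defb points at 0%, and the points of all genes between 3.85% and 7.20%.

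All 28 Defa genes lie in 1 array on chromosome 8, from 21025545 (the start of *Defa21*) to 21735471 (the end of *Defa24*), a stretch of 710 kb with no Defb gene in it. The genes are short, 805 to 1133 bp, with gaps of 9.02 to 52.7 kb between them (median 26.7 kb). In each list the array was covered by 1 to 3 peaks, 1 of them very wide. In EBF2 Vec replicate 1 this was a peak of 612 kb, from 21029467 to 21641152, over 23 Defa genes. In EBF2 Vec replicate 2 the ground was split into a peak of 137 kb over 7 Defa genes, a peak of 467 kb over 18 and a peak of 2.65 kb over none. EBF2 Cre replicate 1 had a peak of 608 kb over 23 Defa genes beside a peak of 1.45 kb over none, and EBF2 Cre replicate 2 had 1 peak of 649 kb over 25.

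The H3K27ac lists had the same layout. H3K27ac Vec replicate 1 had a peak of 571 kb over 22 Defa genes and a peak of 1.66 kb over none, and Vec replicate 2 had 1 peak of 610 kb over 23. In Cre, the peak was 644 kb wide over 25 Defa genes in replicate 1 and 581 kb wide over 22 in replicate 2. Of the 28 Defa genes, 21 were overlapped by a peak in all 8 lists, beside 3.19% of all protein-coding genes. With the 10 kb around each gene counted, the number was 23, from *Defa23* to *Defa26* in the order of the chromosome, beside 3.60% of all protein-coding genes. *Defa23* was 1.56 kb from the nearest peak in H3K27ac Cre replicate 2 and *Defa26* 4.35 kb in H3K27ac Vec replicate 1, and both were overlapped in the other 7 lists. Of the bases of the array, 537 kb or 75.6% were covered in all 8 lists and 57.2 kb or 8.06% in none.

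The widest peak at the Defa genes ranked high by score within each list, but many peaks were wider. By width it stood between rank 48 (H3K27ac Vec replicate 2) and rank 56 (EBF2 Vec replicate 2). A wider peak before the array, with no defensin gene under it, stood at rank 2 to 5 by score in the 8 lists. Its fold over the caller's estimate of background was 38 to 65.7 at the highest point in EBF2. Its mean fold in H3K27ac was 33.4 to 37.9. By the authors' score, the widest peak at the Defa genes stood at rank 41 of 724 in EBF2 Vec replicate 1, 38 of 533 in Vec replicate 2, 40 of 660 in Cre replicate 1 and 37 of 676 in Cre replicate 2. At its highest point, its fold over the caller's estimate of background was between 15.1 and 22.1 in the EBF2 lists. The other wide peak of EBF2 Vec replicate 2, 137 kb over 7 Defa genes, stood lower, at rank 137 of 533 with a fold of 5.45. In H3K27ac the widest peak stood at rank 39 of 836 and 60 of 646 in Vec and at rank 42 of 673 and 50 of 902 in Cre, with mean folds of 8.01 to 9.62. The EBF2 lists also give the highest point of a peak. It fell within 39.7 kb of ground in the 4 EBF2 lists, nearest to *Defa42* in both Vec replicates and Cre replicate 2 (1.74, 14.1 and 10.5 kb from the gene) and nearest to *Defa36* in Cre replicate 1 (2.56 kb). In no EBF2 list was the highest point of the widest peak inside a Defa gene.

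**Figure D2:**
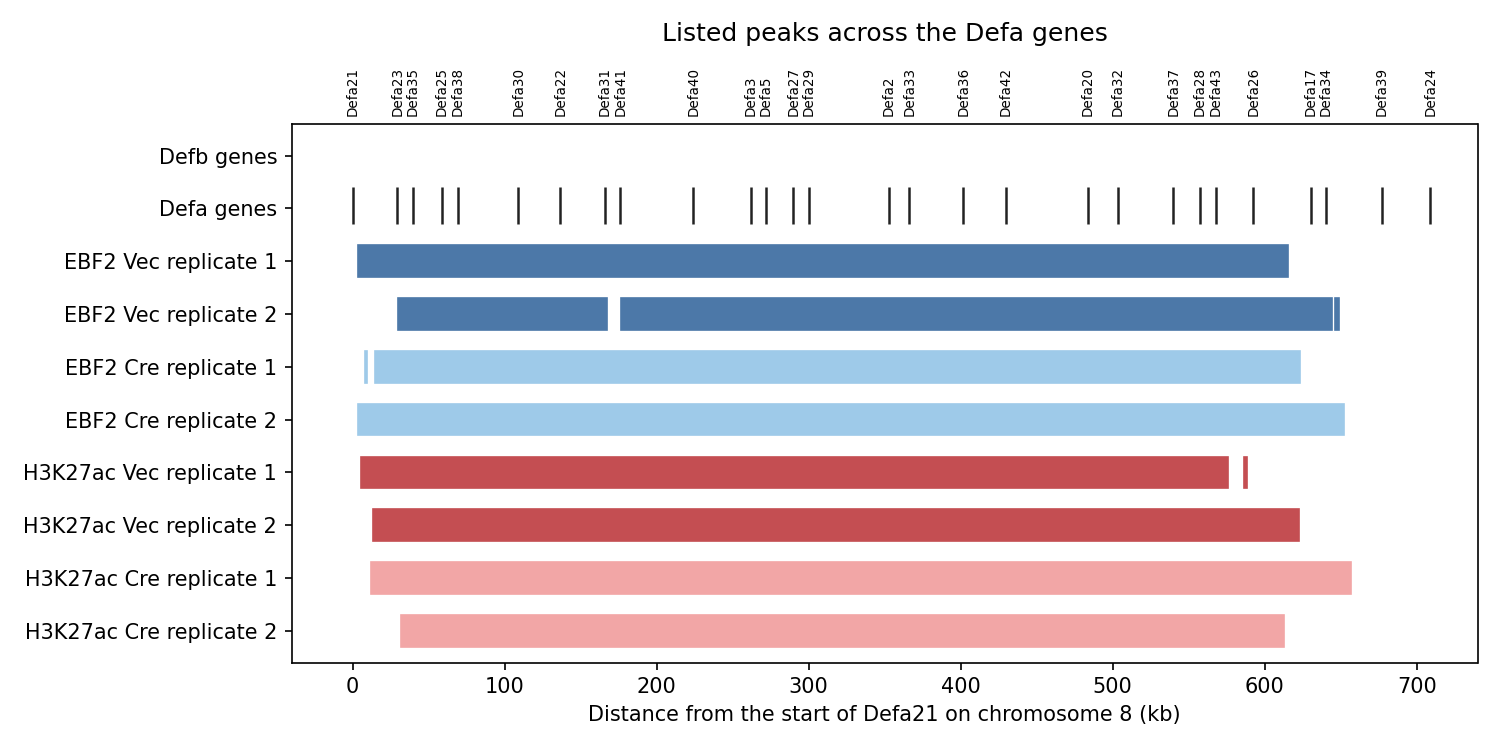
Peaks of each list as bars along the Defa array, by distance in kb from the start of *Defa21*, with the starts of the 28 Defa genes as black ticks and EBF2 in blue and H3K27ac in red (Vec dark, Cre light). The ends of the bars differ between lists while 537 kb is covered in all 8, and *Defa39* and *Defa24* lie beyond the end of every bar.

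The lists differed at the ends of the array. The first covered base lay between 21029336 and 21057572 over the 8 lists, a range of 28.2 kb, and the last between 21613815 and 21682041, a range of 68.2 kb. *Defa21* is the first gene, and no peak overlapped it. The nearest peak was 2.95 kb and 29.2 kb from it in EBF2 Vec replicates 1 and 2, and 6.91 and 2.82 kb in EBF2 Cre. In H3K27ac, the distance was 4.39 and 12.3 kb in Vec and 11.4 and 31.1 kb in Cre. It thus had a peak within 10 kb in 4 of the 8 lists, and Vec and Cre overlapped in both antibodies.

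*Defa17* and *Defa34* lie near the other end of the array. *Defa17* was under a peak in EBF2 Vec replicate 2, EBF2 Cre replicate 2 and H3K27ac Cre replicate 1, and it was 6.93 kb from one in EBF2 Cre replicate 1 and 7.44 kb in H3K27ac Vec replicate 2. In the other lists it was 14.6 kb (EBF2 Vec replicate 1), 17.2 kb (H3K27ac Cre replicate 2) and 42 kb (H3K27ac Vec replicate 1) away. *Defa34* was under a peak in the same 3 lists as *Defa17* and between 17.0 and 52.0 kb from one in the other 5. Of the distances that lay just inside the limit of 10 kb, the largest were thus 7.44 and 6.93 kb, and just outside it came 11.4 and 12.3 kb, at *Defa21*. *Defa39* and *Defa24*, the last genes of the array, had no peak within 10 kb in any list. Their nearest peaks were 20.5 to 88.7 kb and 52.5 to 121 kb away.

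Next, the Defa genes were compared between Vec and Cre, to see whether loss of *Cars2* moved the peaks there. EBF2 peaks were at 24.5 ± 0.707 Defa genes in Vec and at 25.5 ± 0.707 in Cre (SD, n = 2 each; p = 0.667, two-sided exact permutation test), a difference of 1 gene. With 2 libraries against 2, the smallest p this test allows is 0.333. The libraries overlapped, since Vec replicate 2 and Cre replicate 1 both had 25. Without Cre replicate 1, whose peak names carry Cars2AKO, the difference was 1.5 genes, and it was also 1.5 without the short list of Vec replicate 2. It was 0.5 without Vec replicate 1 and 0.5 without Cre replicate 2. Peaks of H3K27ac were at 24 genes in both Vec libraries and at 24 ± 1.41 in Cre (SD, n = 2; p = 1, exact permutation test). This difference of 0 came to -1 without H3K27ac Cre replicate 1 and to 1 without H3K27ac Cre replicate 2.

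Of the Defa array, EBF2 peaks spanned 0.61 ± 0.00306 Mb in the Vec libraries and 0.629 ± 0.0275 Mb in the Cre libraries (SD; n = 2 each; p = 0.667, two-sided exact permutation test). H3K27ac peaks spanned 0.591 ± 0.0263 Mb in the Vec libraries and 0.613 ± 0.0447 Mb in the Cre libraries (p = 0.667, same exact test), and the direction of this difference rested on Cre replicate 1, without which it was -0.00997 Mb. The EBF2 difference of 0.0197 Mb rested on EBF2 Cre replicate 2, without which it was 0.000228 Mb, and it was 0.0391 Mb without EBF2 Cre replicate 1. Both differences were smaller than the larger SD of their groups. No Defa gene had a peak in both lists of one kind of cell and in neither of the other, with EBF2 or with H3K27ac. Of all protein-coding genes, 0.0457% had EBF2 peaks in both Vec lists only and 0.132% in both Cre lists only, and for H3K27ac these shares were 0.178% and 0.101%. EBF2 peaks were at 25 ± 0.816 Defa genes and H3K27ac peaks at 24 ± 0.816 (SD, n = 4 each; p = 0.286, two-sided exact permutation test), so that a difference between the antibodies was not shown.

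The Defb genes lie in 5 groups of genes apart by less than 500 kb, 1 of which also holds the Defa array, and none had a peak within 10 kb in any list. Of the 42, 24 are on chromosome 8, 15 before the Defa array and 9 after it. The other 18 are on chromosome 1 (*Defb18* and *Defb41*), chromosome 2 (11 genes, from *Defb23* to *Defb25*) and chromosome 14 (5 genes, from *Defb48* to *Defb42*). On these chromosomes the nearest peak was never closer than 1.04 Mb. For the 11 genes of chromosome 2 it was between 1.04 and 1.21 Mb away in the 7 lists other than EBF2 Vec replicate 2, and between 22.6 and 22.8 Mb in that list. The distance was 7.04 to 61.5 Mb for the pair on chromosome 1 and 2.08 to 6.28 Mb for the genes on chromosome 14.

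On chromosome 8 the Defb genes were nearer to peaks but still apart from them. The first group, from *Defb40* (18974914) to *Defb7* (end 19497775), held 14 Defb genes in 523 kb at 183 to 718 kb from the nearest peak. It includes *Defb3*, *Defb4* and *Defb14*, which encode inducible beta-defensins of epithelia. *Defb4* was 480 to 495 kb from a peak over the 8 lists, *Defb3* 386 to 401 kb and *Defb14* 486 to 501 kb. After the Defa array, *Defb1*, which encodes a beta-defensin made constitutively by kidney and other epithelia, was 135 and 102 kb from the nearest peak in EBF2 Vec, 128 and 98.6 kb in EBF2 Cre, 163 and 128 kb in H3K27ac Vec and 94.5 and 138 kb in H3K27ac Cre. The 8 distances of *Defb1* overlapped between Vec and Cre and between the antibodies, and the nearest peak was in 8 of 8 lists the one at the Defa array. *Defb2* was 158 to 226 kb away and *Defb13*, the last gene, 244 to 333 kb.

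**Figure D3:**
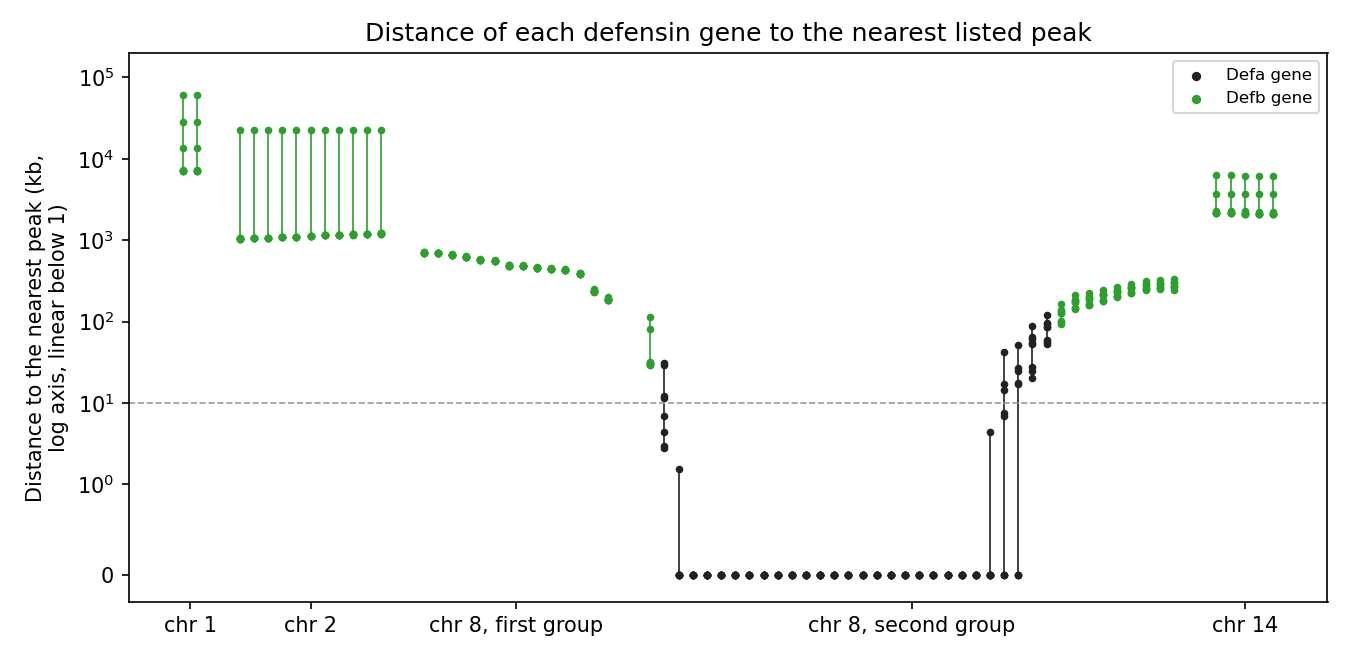
Distance in kb from each defensin gene to the nearest peak (log axis, linear below 1) in the 8 lists, with 1 point per list, a line from the lowest to the highest, and genes in the order of the chromosome within each group. Defa genes (black) lie at 0 in the middle of their array and rise at its ends, and all Defb genes (green) lie above the dashed line at 10 kb, at 29.5 kb or more.

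*Defb33* (chromosome 8, 20892667 to 20897723) was the Defb gene nearest to a peak. It lies between the Defa array and 2 further wide stretches of peaks, from 19681266 to 20458817 and from 20494959 to 20806115 in H3K27ac Vec replicate 1, which were joined into 1 peak in 3 of the other lists. The peak nearest to it was a small one, with a width of 9.11 kb and 3.78 kb in H3K27ac Vec replicates 1 and 2 and of 5.98 and 7.09 kb in H3K27ac Cre. The 2 EBF2 Cre lists had it too, with widths of 5.14 kb (20855781 to 20860921, fold 2.81) and 4.03 kb (20857244 to 20861277, fold 2.36). Neither EBF2 Vec list had a peak there. The distance from *Defb33* to the nearest peak was accordingly 80.9 and 113 kb in EBF2 Vec, 31.7 and 31.4 kb in EBF2 Cre, 29.5 and 31.3 kb in H3K27ac Vec and 29.6 and 29.9 kb in H3K27ac Cre. The EBF2 groups did not overlap. This peak stood at rank 279 of 660 and 328 of 676 by score in the EBF2 Cre lists, and lists hold only peaks past the threshold of the caller, so weaker coverage in Vec is not seen. With a window of 50 kb, *Defb33* was the only Defb gene counted, in 0 of 2 EBF2 Vec lists, 2 of 2 EBF2 Cre lists and 4 of 4 H3K27ac lists (EBF2 Cre against Vec, p = 0.333, the smallest that the exact permutation test allows). At 50 kb, 6.75% and 5.09% of all protein-coding genes had a peak in EBF2 Vec, 6.58% and 6.31% in EBF2 Cre, 9.47% and 7.39% in H3K27ac Vec and 7.67% and 10.2% in H3K27ac Cre. Of the same genes, 0.142% had one in both EBF2 Cre lists and neither EBF2 Vec list.

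**Figure D4:**
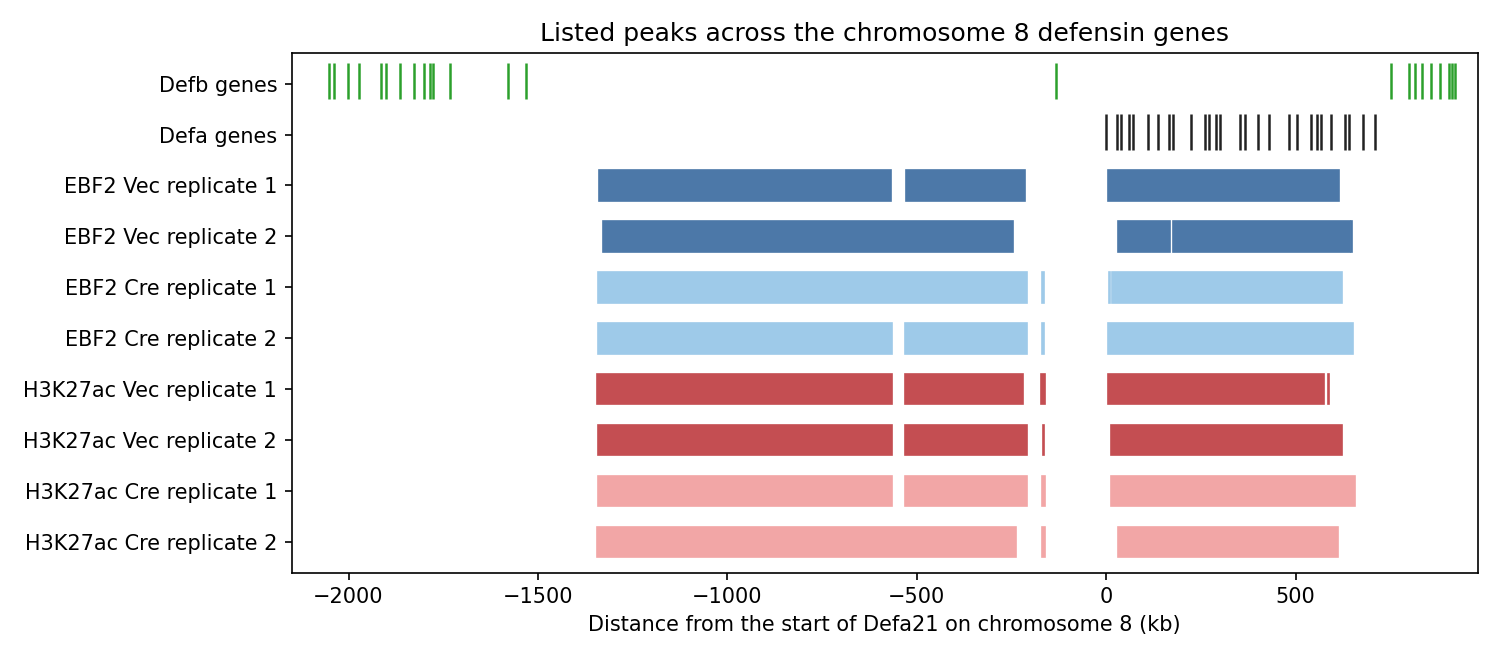
Peaks of each list as bars along chromosome 8, by distance in kb from the start of *Defa21*, with gene starts as ticks (Defb green, Defa black), EBF2 in blue and H3K27ac in red (Vec dark, Cre light). The Defb genes stand clear of every bar, and the small bar between the wide stretches and the Defa array is in the 4 H3K27ac and both EBF2 Cre lists.

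Between *Defb40* and *Defb13*, 2.97 Mb of chromosome 8, lie 12 other protein-coding genes. Of these, 6 had a peak within 10 kb in all 8 lists, 1 in some and 5 in none. The 6 were *4930467E23Rik*, *9530057J20Rik*, *Gm15319*, *Gm40469* and *Gm21119*, under the wide stretches before *Defb33*, and *Defa-ps8*, which lies within the Defa array and has no number straight after Defa. *Spag11a* and *Spag11b*, epididymal genes related to beta-defensins that lie among the Defb genes, were 521 to 554 kb from the nearest peak and had none. How reads that fit more than 1 copy of a sequence were placed is not given in the sources used here. Its part in the peaks at the Defa genes was not tested.

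Finally, a list of 33 other genes of antimicrobial defense was looked up, of which 31 were found in the gene table: lysozymes, Reg3 lectins, cathelicidin, hepcidins, *Mmp7*, and receptors such as *Ccr6* and *Tlr4*. Of the 31, 3 had a peak within 10 kb in any of the 8 lists, where 8.89% of all protein-coding genes had one. These were *Hamp*, encoding the iron-regulating peptide hepcidin, in 6 lists, its neighbour *Hamp2* in 3, and *Tlr4*, the receptor for bacterial lipopolysaccharide, in 3. The number per list was 2 and 0 in EBF2 Vec, 1 and 0 in EBF2 Cre, 3 and 2 in H3K27ac Vec and 2 in each H3K27ac Cre list. *Mmp7*, *Lyz1* and *Ang4*, products of Paneth cells like the alpha-defensins, had none, and neither had *Ccr6*, a chemokine receptor that beta-defensins bind.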

How the data were processed

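EBF2 and H3K27ac Cut & Tag peak lists from differentiated Vec and Cre BAC (2 libraries per antibody and cell type) were used as labelled. Per the labels, the submitters' processing notes name Trimmomatic 0.33, HISAT2 2.2.1, MACS2 2.2.7 and mm10. The authors deposited 1 list per library, in the narrow layout for EBF2 and the broad layout for H3K27ac. The deposited score is the −log10 q-value times 10. The deposited fold is a ratio of coverage to MACS2's local background. It and the deposited −log10 p-value and −log10 q-value refer to the highest point of an EBF2 peak and to the average of an H3K27ac peak. Caller settings, control library and treatment of duplicate and multiply placed reads are not given in the sources used here. Folds and ranks by score were read within a list. The best −log10 q-values were compared between the EBF2 lists, and the alternative with a score of at least the median used 1 cut per antibody.

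Genes came from the RefSeq table of GRCm38.p6, the same assembly as mm10. A gene was counted if a peak overlapped it by at least 1 bp or lay within 10 kb of either end. Libraries were compared by exact permutation tests (threshold 0.05). Promoters of 300 bases were aligned end to end (match 1, mismatch -1, gap opening -2, gap extension -0.5). The planned protein comparison was replaced by promoters. The members and lists were chosen with earlier results of these data known. Genes were named if a Defb gene had a peak in any list, a Defa gene lacked one in at least 1 list, they stood at the ends of a group or of the 10 kb limit, formed the most alike pair, or were well known. *Defa1* and *Defa4*, also planned, were not found in the gene table. *Rik*, *Gm*, *Spag11* and *Hamp* genes, *Tlr4*, *Ly6a* and *Defb45* were named after their values were seen. The counting step was tested on simulated data: 120 of 120 genes with a simulated peak inside the window were found, and 0 of 80 outside it. The alternatives were a score of at least the median (29 for EBF2 and 27 for H3K27ac), peaks of 10 kb or less, an equal number of best-scoring peaks (533 and 646), the gene body only, 50 kb, 50% of the gene body covered, all annotated genes, a replicate block and leaving out each library. Python 3.11.15 with numpy 2.4.6, pandas 2.3.3, biopython 1.88 and matplotlib 3.10.9 was used.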

Additional observations from a re-analysis of the deposited data

How the results depend on the processing

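In all lists and under each alternative except peaks of 10 kb or less, between 22 and 27 of the 28 Defa genes and 0 or 1 Defb gene had a peak, beside 3.11% to 10.2% of all protein-coding genes. With pseudogenes included, 28 to 31 of 40 Defa genes and 0 of 43 Defb genes had one. With peaks of 10 kb or less, the Defa share differed from the Defb share by 1.34 percentage points and from the share of all protein-coding genes by 0.354 percentage points (p = 0.633, exact sign-flip permutation test), since the wide peaks over the Defa array were removed. The same limit turned the Cre minus Vec difference in covered length to -0.0006 Mb for EBF2 and -0.000829 Mb for H3K27ac. Leaving out each library in turn gave a Defa minus Defb difference of 86.7 to 88.3 percentage points, a Cre minus Vec difference of 0.5 to 1.5 Defa genes for EBF2 and -1 to 1 for H3K27ac, and a difference in covered length of 0.000228 to 0.0391 Mb for EBF2 and -0.00997 to 0.0532 Mb for H3K27ac. With the replicate number as a block, the EBF2 difference of Cre minus Vec remained 1 Defa gene (exact sign-flip permutation test, p = 0.5, the smallest that 2 pairs allow). The block was applied to 8 comparisons of counts and covered length, none of which could reach the threshold of 0.05 with it, so it says nothing of their stability. The same-numbered Vec and Cre lists deviated with a correlation over genes of 0.051 for EBF2 and 0.12 for H3K27ac, so the numbers were not taken as pairs. Depth is unknown, and coverage under the threshold of the caller is not in the lists.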
